A study of Mus musculus with 36 samples.

Results

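Oxidative phosphorylation (OXPHOS) is the process by which mitochondria turn electrons from nutrients into ATP. The subunits of complexes I, III, IV (cytochrome c oxidase) and V (ATP synthase) were examined here in fetal mouse germ cells and gonads exposed to maternal hyperglycemia. Members were the genes whose symbols start with Nduf and a subunit letter and number, Uqcr, Cox4 to Cox8 or Atp5, without copies marked -ps or -rs, together with the protein-coding genes of mitochondrial DNA. This rule gave 105 of the 61249 genes listed in the deposited tables, 92 of them nuclear and 13 mitochondrial. A mean of at least 1 TPM (a transcript level scaled for gene length and for the total of its library) in at least 1 group was reached by 103 members. The lowest of these was Ndufa11b with 2.29 TPM in its highest group, and the 2 left out were second gene models of Atp5po and Atp5a1 on alternative sequence patches, both listed at 0.

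Complexes I, III and IV pump protons across the inner mitochondrial membrane, and complex V uses the returning protons to make ATP. The catalytic centre of complex IV, cytochrome b of complex III, the proton-pumping membrane arm of complex I and a membrane part of complex V are encoded by mitochondrial DNA. All other subunits are encoded in the nucleus and imported, so a working complex needs products of both genomes. Several complex IV subunits exist as isoform pairs with tissue-restricted members, of which Cox6b2, Cox7b2 and Cox8c are known from the testis and Cox6a2, Cox7a1 and Cox8b from muscle. Primordial germ cells (PGCs) are the precursors of eggs and sperm. Female PGCs enter meiosis in the fetal ovary, whereas male PGCs stop dividing in the fetal testis.

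The series held 36 bulk RNA-seq libraries in 12 groups of 3. Intrauterine hyperglycemia (IUHG) was induced in pregnant mice with 120 mg/kg of streptozotocin (STZ), a toxin of insulin-producing cells, at E3.5, and dams above 14 mM blood glucose at E6.5 were included. Controls are labelled as the control group with no agent named, so STZ and high glucose cannot be told apart in any comparison of IUHG with control. Whole E13.5 female gonads (6 libraries, ICR mice, genotype WT in the labels) and Oct4-EGFP positive PGCs (30 libraries, also labelled WT, from fetuses with a green fluorescent reporter of the germ cell gene Oct4) were collected. The PGCs were E12.5 cells of undetermined sex, E13.5F and E13.5M cells and E16.5F and E16.5M cells, where F is female and M is male, each with control and IUHG groups. Each library came from pooled fetuses, so the libraries of a group are the replicates and spread between single fetuses was not measured.

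The germ cell markers Ddx4, Dazl, Pou5f1, Dppa3 and Dnd1 summed to between 1677 and 9442 TPM in the PGC libraries and to between 420 and 711 TPM in the gonads. Markers of other gonadal cells were low in PGCs, as given beside the results they moved with. Gonad control replicate 1 stood apart, with 230 TPM of Sertoli cell markers and 295 TPM of steroidogenic markers against at most 37.5 TPM for either list in the other 5 gonad libraries. It kept its label, and results without it are given below. The aligned amount of sequence, estimated from coverage and gene length, was between 3.89 and 4.95 gigabases in gonads and between 3.25 and 8.32 gigabases in PGCs. The tables hold no read counts, so no counting interval can be given.

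The mitochondrial members came in 2 kinds, and their sequences are shown because shared sequence bears on how their levels can be read. For 6 genes, mt-Atp6, mt-Atp8, mt-Co2, mt-Co3, mt-Nd3 and mt-Nd4l, the whole gene lay in a nuclear copy of mitochondrial DNA on chromosome 1 with at least 99% identity. A read from such a gene aligns to both places, and the PGC tables were made from uniquely aligned reads only. The next lines show the first 90 bases of mt-Atp8 (a small subunit of complex V) and of mt-Nd3 (a membrane subunit of complex I) beside their copies, and a 90-base stretch of mt-Cytb (cytochrome b of complex III) beside its nearest copy. Positions are of mouse build NCBIM37 and capitals mark bases that differ between the gene and its copy.
mt-Atp8, chrM:7766-7855, plus strand: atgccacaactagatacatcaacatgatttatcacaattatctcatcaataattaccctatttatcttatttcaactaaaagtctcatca
copy of mt-Atp8, chr1:24621562-24621651, minus strand: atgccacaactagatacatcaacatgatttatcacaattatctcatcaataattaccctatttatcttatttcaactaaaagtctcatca
mt-Nd3, chrM:9459-9548, plus strand: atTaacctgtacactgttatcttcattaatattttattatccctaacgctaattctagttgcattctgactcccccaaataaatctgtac
copy of mt-Nd3, chr1:24619869-24619958, minus strand: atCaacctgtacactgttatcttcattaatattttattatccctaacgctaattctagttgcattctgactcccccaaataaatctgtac
mt-Cytb, chrM:14146-14235, plus strand: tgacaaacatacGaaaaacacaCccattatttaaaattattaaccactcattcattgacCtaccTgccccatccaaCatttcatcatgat
copy of mt-Cytb, chr4:79649894-79649983, plus strand: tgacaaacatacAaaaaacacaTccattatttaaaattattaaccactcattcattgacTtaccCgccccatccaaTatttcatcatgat
The mt-Atp8 stretch had 0 differences, the mt-Nd3 stretch 1 and the mt-Cytb stretch 5. Over its whole length of 348 bases mt-Nd3 differed from its copy at that single base. Of the other members, mt-Nd4 lay in the chromosome 1 copy over 63.6% of its length and mt-Co1 in near-identical copies over 31.3%. The 5 remaining genes, mt-Cytb, mt-Nd1, mt-Nd2, mt-Nd5 and mt-Nd6, had no aligned copy of at least 99% identity. Their best matches reached between 76.6% and 96.7% over the aligned part. Shorter identical runs can still occur, as in the mt-Cytb lines above.

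Promoters of nuclear members often hold sites for factors that drive mitochondrial biogenesis, among them NRF1, the ETS factor GABPA and YY1. In promoters of 300 bases (250 before and 50 after the RefSeq start, build GRCm38.p6), 67 of the 92 nuclear members were matched by symbol. The NRF1 letters, GCGCA and GCGC with any single base between them, searched on both strands, were found in 15 members (22.4%) against 5.19% of 27025 genes. The GABPA/ETS letters CCGGAAG were found in 15 members (22.4%) against 9.93%, and the YY1 letters AAGATGG in 11 (16.4%) against 7.28%. At least 1 of the 3 was found in 36 members (53.7%) against 20.0% of all genes. A match describes these letters only and does not show that a factor was bound. The 120 bases directly before the start of 4 members are shown on the gene's strand, with the matched letters in capitals, as examples of promoters with NRF1 and ETS letters, with NRF1 letters at 2 places, with ETS letters alone and with none in this window.
Cox6a1, chr5:115348959-115349078, minus strand: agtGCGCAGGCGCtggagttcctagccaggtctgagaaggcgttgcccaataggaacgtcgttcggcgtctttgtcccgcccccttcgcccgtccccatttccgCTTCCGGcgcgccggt
Ndufb4, chr16:37654369-37654488, minus strand: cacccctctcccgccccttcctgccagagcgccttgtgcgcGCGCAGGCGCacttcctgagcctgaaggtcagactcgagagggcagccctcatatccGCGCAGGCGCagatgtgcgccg
Uqcr11, chr10:80406822-80406941, minus strand: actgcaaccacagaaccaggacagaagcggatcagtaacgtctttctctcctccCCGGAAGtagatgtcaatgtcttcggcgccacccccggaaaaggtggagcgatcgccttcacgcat
Ndufa1, chrX:37191239-37191358, minus strand: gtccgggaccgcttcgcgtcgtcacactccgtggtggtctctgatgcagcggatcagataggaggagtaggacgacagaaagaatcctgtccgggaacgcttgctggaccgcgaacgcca
Cox6a1 encodes a complex IV subunit, Ndufb4 and Ndufa1 encode accessory subunits of complex I, and Uqcr11 encodes a small subunit of complex III. Cox6a1 was measured between 1619 and 3020 TPM, Ndufb4 between 114 and 365 TPM and Uqcr11 between 772 and 2190 TPM in the control PGC libraries. Ndufa1, whose window held none of these letters, had the widest range of the 4, from 80.7 to 3640 TPM.

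OXPHOS transcripts of the nuclear genome made up a larger part of the PGC tables than of the gonad tables. Nuclear members summed to 13359, 12888 and 13031 TPM in the 3 control gonad libraries, and to between 49593 and 75309 TPM in the 15 control PGC libraries, with no overlap. Mitochondrial members went the other way, at 75838, 75210 and 78015 TPM in control gonads and between 11993 and 20076 TPM in control PGCs. The gonad and PGC tables differ in tissue, in library preparation and in alignment, which cannot be told apart, so no test was made between them. Blood markers, mostly hemoglobin genes, took between 10559 and 16978 TPM of the gonad libraries and at most 577 TPM of any PGC library, and their part in this difference was not tested.

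**Figure D1:**
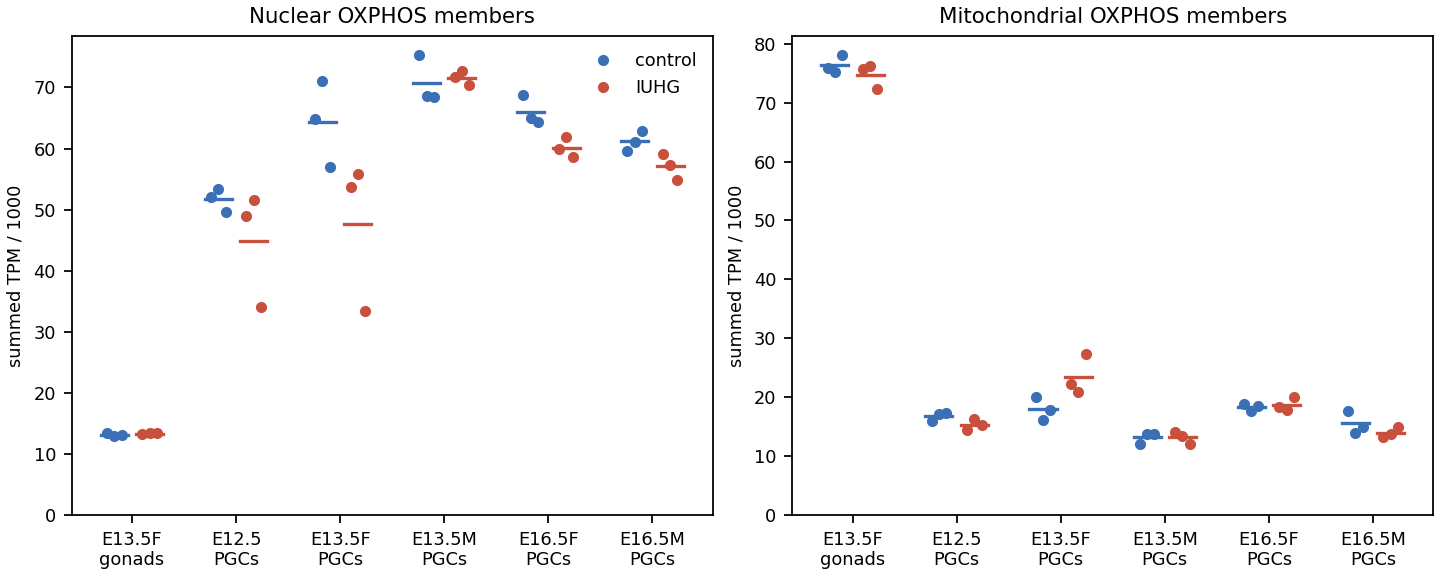
Summed TPM divided by 1000 (vertical axis) of the nuclear (left) and mitochondrial (right) OXPHOS members in each group, 1 point per library and a bar at the group mean, with control in blue and IUHG in red. Nuclear sums are lowest in gonads, and replicate 3 of E12.5 and of E13.5F IUHG PGCs lies below the other libraries of its group.

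Among the mitochondrial members the gap between gonads and PGCs was widest for the copied genes. The 6 genes that lie in the chromosome 1 copy summed to between 27841 and 30349 TPM in gonads and between 284 and 953 TPM in PGCs. mt-Nd3 had a mean of 749 TPM in control gonads and of 0.362 TPM over control PGCs, and mt-Co2, the subunit that receives electrons from cytochrome c, had 6571 and 32.7 TPM. The other 7 genes summed to between 44553 and 47667 TPM in gonads and between 11335 and 26643 TPM in PGCs. mt-Cytb, which has no near-identical copy, had a mean of 7522 TPM in control gonads and 5821 TPM over control PGCs. mt-Nd1, a core membrane subunit of complex I, had 8023 and 2823 TPM, and mt-Co1, the catalytic subunit of complex IV, had 14288 and 3636 TPM. The 7 genes annotated inside the nuclear copy itself were listed at between 29908 and 32126 TPM in gonads and between 394 and 748 TPM in PGCs. The part of the unique-alignment step in these levels was not tested, and changes of mt-Nd3 and mt-Nd4l in PGCs rest on low values.

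**Figure D2:**
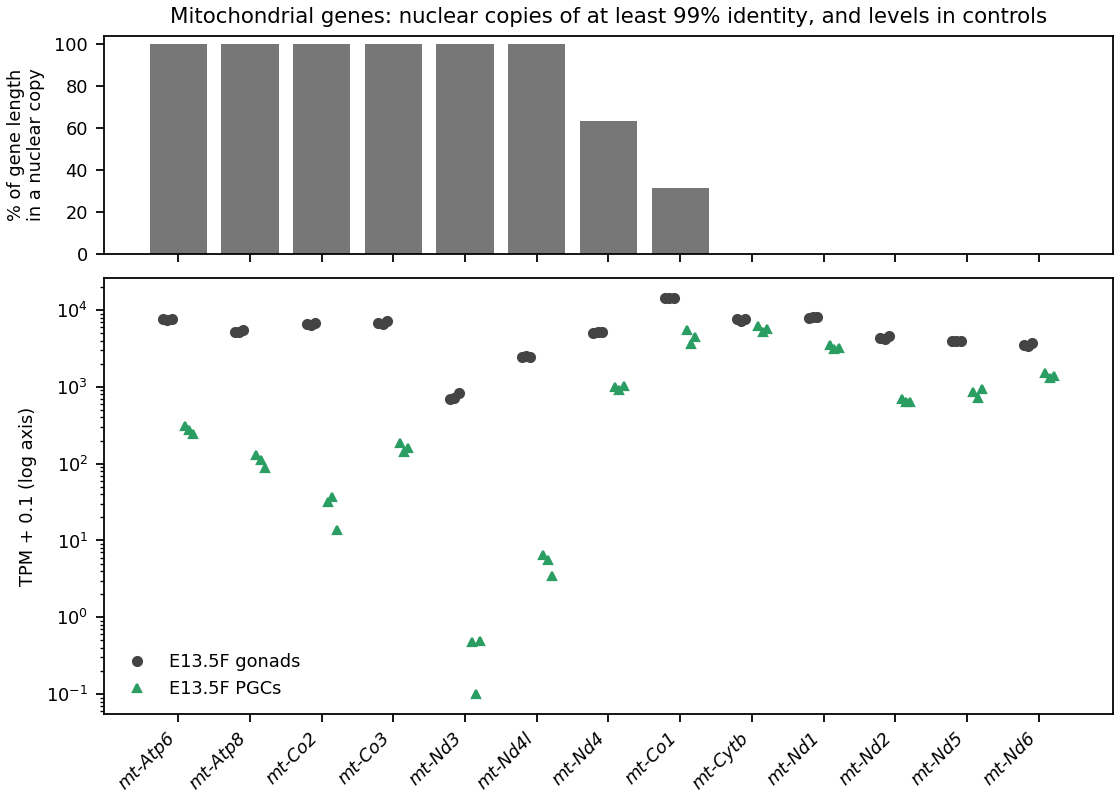
Upper panel: share of each mitochondrial gene's length (%) that lies in a nuclear copy of at least 99% identity. Lower panel: TPM + 0.1 (log axis) in the 3 control libraries of E13.5F gonads (circles) and E13.5F PGCs (triangles), where the 6 genes at 100% are the ones that fall furthest and mt-Cytb is nearly level.

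Female and male control PGCs at E16.5 differed in most nuclear members, and in both directions. Of 87 tested, 44 were higher in females and 31 lower at an adjusted p under 0.05 (limma on log2(TPM + 1)), in a comparison where 33.2% of all tested genes were higher and 38.9% lower. The median member differed by 0.24 on the log2 scale and the median of all genes by -0.11. With median-of-ratios scaling the calls were 34 higher and 37 lower, with a median of -0.06 (the median of all genes moved by -0.28), so the balance of directions follows the scaling while the individual differences given next kept their direction. Complexes were assigned by the start of the symbol. Every Nduf gene, Ndufa4 and Ndufa4l2 included, is thus counted in complex I, whichever complex its product joins. By complex, 23 members of complex I were higher and 13 lower of 42, with 5 and 3 of 8 in complex III. Complex IV gave 6 and 9 of 19, and complex V 10 and 6 of 18. Among non-member genes under 1000 bases 23.1% were higher in females and 55% lower, with a median of -0.87. The part of transcript length was not tested.

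Ndufa1 (ENSMUSG00000016427, chrX:36451241-36454816 in Mm39), an X-linked accessory subunit of complex I, differed most among the members higher in females. It was at 3640, 3317 and 3502 TPM in E16.5F and at 94.1, 80.7 and 97.1 TPM in E16.5M controls, a difference of 5.25 (SE 0.08, adjusted p = 3.44e-08). The earlier groups lay between these: 180, 201 and 171 TPM at E12.5, 606, 675 and 365 TPM in E13.5F and 194, 180 and 164 TPM in E13.5M. Among controls, E13.5F was already above E13.5M in every library, and E16.5F was above every other PGC group.

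Atp5pb (ENSMUSG00000000563, chr3:105850014-105867415), the peripheral stalk subunit b of ATP synthase, showed the same order on an autosome. Its levels were 1992, 1768 and 1776 TPM in E16.5F and 75.2, 67.5 and 72.6 TPM in E16.5M, a difference of 4.66 (SE 0.07, adjusted p = 3.79e-08). At E13.5 it was at 1110, 1185 and 1243 TPM in females and 353, 368 and 382 TPM in males. The groups did not overlap at either stage. It shares 731 bases with Wdr77 on the opposite strand, which was at a mean of 65.9 TPM in E16.5F and 35.8 TPM in E16.5M controls, and 50.1% of its transcript has a near-identical copy elsewhere, so reads at those places are uncertain.

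Further subunits of the complex I electron path behaved in the same way. Ndufv2 (chr17:66385633-66408554), an iron-sulfur subunit of the NADH-binding module, was at 959, 840 and 850 TPM in E16.5F and 70.7, 62.1 and 67.2 TPM in E16.5M (difference 3.71, SE 0.08). Ndufs1, the largest iron-sulfur subunit, was at 232, 217 and 184 TPM against 50.4, 50.3 and 48.9 TPM (difference 2.05, SE 0.10). For both, female and male libraries did not overlap. Uqcrc2, a core subunit of complex III, and Ndufc1, an accessory subunit of complex I, were higher in females by 2.21 and 2.46.

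Other members of the same complexes were higher in male PGCs at E16.5. Ndufs8 (ENSMUSG00000059734, chr19:3958863-3962774), another iron-sulfur core subunit of complex I, was at 211, 221 and 186 TPM in E16.5F and 1311, 1241 and 1242 TPM in E16.5M, a difference of -2.62 (SE 0.07, adjusted p = 2.07e-07). Ndufv3, an accessory subunit of the NADH-binding module, was at 269, 229 and 211 TPM against 1156, 1280 and 1351 TPM (difference -2.42, SE 0.10). Uqcrc1, the partner of Uqcrc2 in the complex III core, was at 808, 948 and 894 TPM against 1876, 1922 and 1981 TPM (difference -1.13, SE 0.06). Uqcrc1 and Uqcrc2, which occur in equal numbers in the complex, thus differed in opposite directions. Cox4i1, the nuclear subunit needed first in complex IV assembly, was at 2774, 2786 and 2642 TPM in E16.5F and 5731, 6082 and 5811 TPM in E16.5M (difference -1.10, SE 0.04). Cox5a, which joins Cox4i1 in the same assembly step, was instead higher in females, at 2170, 2350 and 2296 TPM against 867, 846 and 895 TPM (difference 1.38, SE 0.05). Atp5f1b, the catalytic beta subunit of ATP synthase, differed by -0.45 and its partner Atp5f1a by 0.31, both past the test. Ndufv1, the NADH-binding subunit itself, differed by -0.05 (adjusted p = 0.43).

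**Figure D3:**
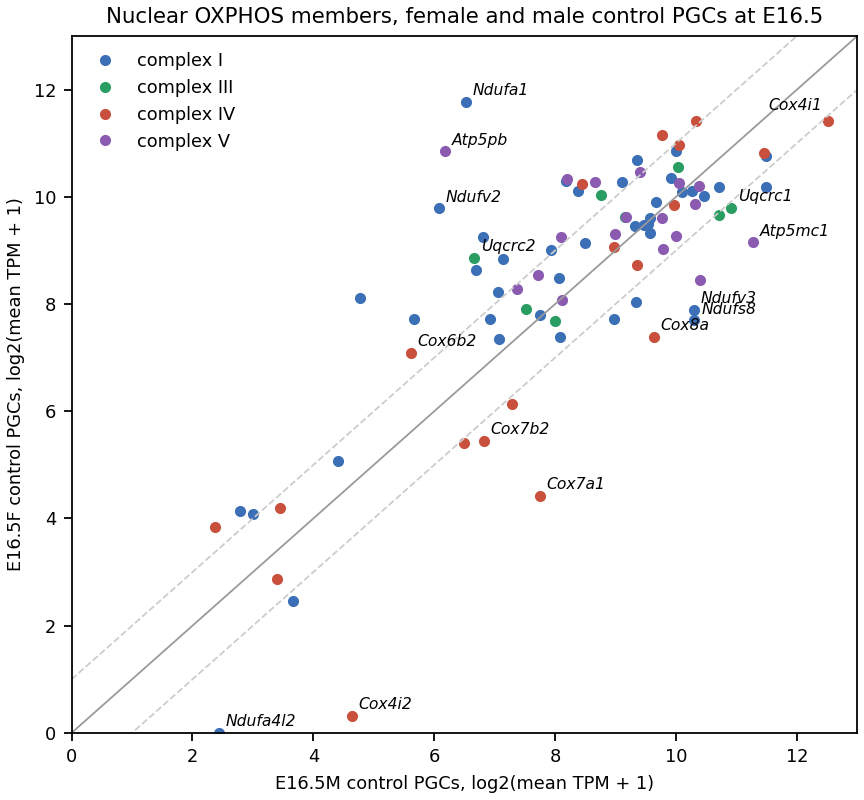
Level of each nuclear OXPHOS member in control PGCs at E16.5, as log2(mean TPM + 1) in males (horizontal) and females (vertical), coloured by complex. The solid line marks equal levels and the dashed lines a difference of 1, and members lie far off the line on both sides, with Ndufa1, Atp5pb and Ndufv2 above it and Cox4i2, Cox7a1, Ndufs8 and Ndufv3 below it.

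At E13.5 the sexes differed in fewer members and by less. Of 87 tested, 25 were higher in females and 32 lower, with 42.5% and 22.6% of all genes. Among non-member genes under 1000 bases 29.1% were higher and 38.5% lower, with a median of -0.097. The part of transcript length was not tested. The median member differed by -0.12 and the median of all genes by 0.28, and with median-of-ratios scaling, which moved the latter by -0.31, the calls were 10 higher and 47 lower. Atp5pb (1.68), Ndufa1 (1.56), Uqcrc2 (1.39) and Ndufv2 (1.32) were higher in females. Cox8a, the general isoform of the smallest complex IV subunit, was at 397, 434 and 409 TPM in E13.5F and 1292, 1102 and 1135 TPM in E13.5M (difference -1.50, SE 0.08). Atp5mc1, which encodes the c-ring subunit of ATP synthase, was lower in females by 1.49 on the log2 scale (951, 1040 and 644 TPM against 2505, 2356 and 2405 TPM). Both were also lower in females at E16.5, by 2.24 and 2.12. The differences at E13.5 and E16.5 come from separate libraries.

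From E12.5 to E13.5 more nuclear members rose than fell in both sexes. Toward E13.5F 43 rose and 8 fell of 85 (38.1% and 19.7% of all genes), with a median of 0.31 against 0.27 for all genes, and toward E13.5M 56 rose and 14 fell of 86 (28.8% and 32.1%), with a median of 0.46 against -0.03. Both comparisons share the E12.5 control libraries. Median-of-ratios scaling moved the median of all genes by -0.27 in the first and 0.03 in the second. With it the female calls of members became 21 higher and 20 lower and the male calls 57 higher and 12 lower. Among non-member genes under 1000 bases 42% rose and 20.4% fell toward E13.5F, with a median of 0.28. Toward E13.5M 57.6% of such genes rose and 17.2% fell, with a median of 0.48. The part of transcript length was not tested. Cox4i1 rose from 1869, 1760 and 1780 TPM to 2939, 3143 and 3445 TPM in females (0.81) and to 3503, 3241 and 3498 TPM in males (0.92). Cox6b2, the testis isoform of a subunit facing cytochrome c, rose from 100, 120 and 108 TPM to 302, 295 and 235 TPM in females (1.33) and to 316, 275 and 274 TPM in males (1.39). Atp5if1, the inhibitor of the ATP synthase, rose to 2064, 1645 and 1657 TPM in males from 734, 822 and 810 TPM (1.17). Atp5f1a fell in females by 0.62 on the log2 scale, from 901, 864 and 899 TPM to 585, 557 and 588 TPM.

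Toward E16.5 the members split. In females 30 rose and 26 fell of 87 (34.3% and 19.6% of all genes), with a median of 0.11 against 0.31 for all genes, and with median-of-ratios scaling, which moved the latter by -0.25, 15 rose and 29 fell. In males 24 rose and 51 fell of 87 (55.5% and 25.9%), with a median of -0.38 against 0.62. With median-of-ratios scaling (a shift of -0.36) 17 rose and 64 fell. Among non-member genes under 1000 bases 32.5% rose and 29.3% fell in females, with a median of 0.10. In males 59% of such genes rose and 26.6% fell, with a median of 0.86. The part of transcript length was not tested. Complex V was the most one-sided in males, with 1 member higher and 12 lower of 18, next to 12 and 26 of 42 in complex I, 3 and 5 of 8 in complex III and 8 and 8 of 19 in complex IV. Atp5f1b fell in both sexes, from 2598, 2549 and 2857 TPM to 898, 952 and 941 TPM in females (-1.52, SE 0.07) and from 2564, 2787 and 2709 TPM to 1290, 1302 and 1235 TPM in males (-1.07, SE 0.04). The E16.5 libraries lay below the E13.5 libraries in both sexes.

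In males Atp5pb fell by 2.34 on the log2 scale and Atp5mc2, a further c-ring gene, by 1.93. Atp5mc2 has a near-identical copy over 100% of its transcript, so its reads cannot be assigned with certainty. Over the same time Uqcrc1 rose from 717, 761 and 729 TPM (1.39) and Ndufs8 from 494, 435 and 496 TPM (1.41). In females Ndufa1 rose by 2.71 and Ndufv1 by 0.69, whereas Cox7b, an X-linked complex IV subunit, fell from 256, 284 and 227 TPM to 75.9, 69.7 and 61.2 TPM (-1.88, SE 0.13).

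The isoform pairs showed the largest relative changes within complex IV. Cox7b2 was at 12.4, 14.9 and 15.2 TPM at E12.5 and at 110, 109 and 117 TPM in E16.5M, and its part of the sum of Cox7b and Cox7b2 was 3.94% ± 0.504 (SD, n = 3) at E12.5, 37.9% ± 2.81 in E16.5F and 42.0% ± 0.573 in E16.5M. In E16.5F most of that gain came with the low Cox7b values, since Cox7b2 itself was at 46.1, 48.1 and 33.2 TPM. Cox8c rose in males from 18.7, 11.9 and 18.2 TPM at E13.5 to 77.6, 93.1 and 97.6 TPM at E16.5 (2.41, SE 0.17). Cox6b2 went the other way, falling in males from 316, 275 and 274 TPM to 47.4, 53.3 and 43.4 TPM (-2.56, SE 0.09), and its part of Cox6b1 and Cox6b2 went from 24.3% ± 0.202 to 6.81% ± 0.515. Thus the 3 testis isoforms did not move together.

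Cox4i2, the isoform of Cox4i1 known from lung, was at 24.7, 21.9 and 25.3 TPM in E16.5M controls and between 0 and 3.40 TPM in all other control PGC libraries, and even there it was 0.407% of the Cox4i sum. Cox7a1 was at 228, 342 and 119 TPM in E13.5F, 12.9, 20.8 and 27.5 TPM in E16.5F and 160, 242 and 238 TPM in E16.5M. Cox8b was listed at 0 in every E12.5 and E13.5F library and reached 8.75, 12.4 and 18.8 TPM in E16.5F controls. Ndufa4l2, a hypoxia-linked relative of Ndufa4, was at 10.1, 7.88 and 7.16 TPM in E13.5F controls and listed at 0 in all 3 E16.5F controls. Among the genes for the identical c-ring protein, Atp5mc1 made up 62.3% ± 2.30 of the sum in E16.5M and 27.6% ± 0.899 in E16.5F, and Atp5mc3 made up 33.5% and 57.3%. Blood markers in E16.5M controls reached 252 to 577 TPM and steroidogenic markers 23.7 to 98.1 TPM, above the E16.5F controls (at most 37.9 and 4.99 TPM), and their part in the levels of Cox4i2 and Cox7a1 was not tested.

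**Figure D4:**
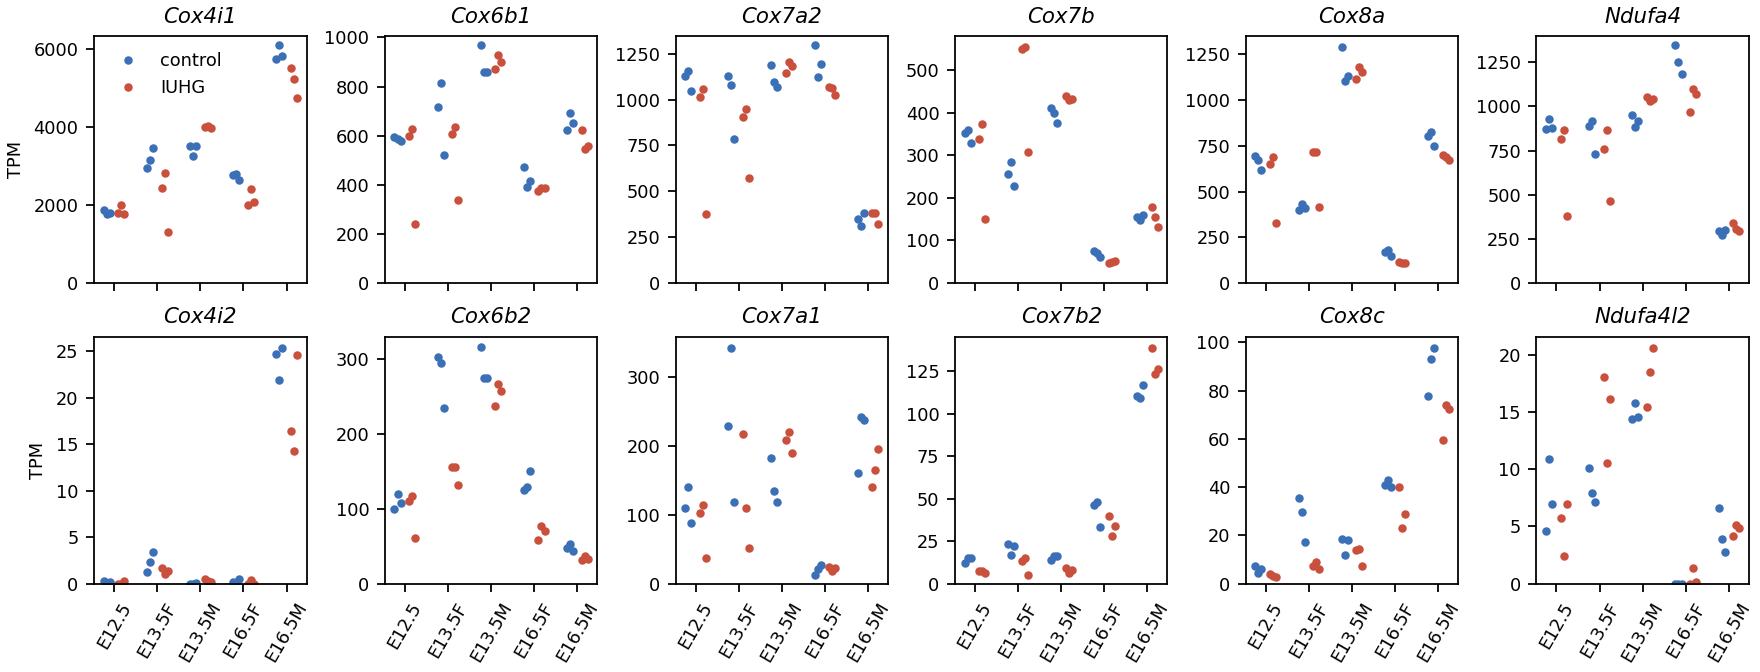
TPM in every PGC library for 6 complex IV or Ndufa4 family pairs, the common isoform above and the restricted isoform below, with control in blue and IUHG in red and groups by stage and sex along the horizontal axis. Cox7b2 and Cox8c are highest in E16.5M, Cox6b2 is highest at E13.5, and Cox4i2 is near 0 outside E16.5M.

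Between control PGC groups the 7 mitochondrial members without a full nuclear copy differed by at most 1.07 on the log2 scale. From E12.5 to E13.5M, mt-Co1 fell from 3104, 3450 and 3343 TPM to 1883, 2305 and 2229 TPM (-0.63, SE 0.07), and mt-Cytb fell by 0.51 and mt-Nd1 by 0.37. In that comparison 6 mitochondrial genes rose and 4 fell of 13 (28.8% and 32.1% of all genes), and the 6 that rose were the copied genes. At E13.5 mt-Co1 was higher in females by 1.07 (5570, 3608 and 4445 TPM), and at E16.5 by 0.49 (4794, 4668 and 4868 TPM against 3912, 3098 and 3257 TPM). At E16.5 mt-Cytb was higher in females by 0.42 and mt-Nd6, encoded on the other strand of mitochondrial DNA, lower by 0.82. Toward E16.5M 5 rose and 2 fell of 13 (55.5% and 25.9% of all genes), but with median-of-ratios scaling mt-Atp6, mt-Atp8, mt-Co3, mt-Nd2, mt-Nd4, mt-Nd5 and mt-Nd6 all took the opposite sign. Toward E16.5F 4 rose and 3 fell of 12 (34.3% and 19.6%), with mt-Nd6 at -0.99 and mt-Nd5 at -0.92, and toward E13.5F 8 rose and 2 fell of 12 (38.1% and 19.7%), of which mt-Nd1 and mt-Nd4 turned negative with that scaling. The strand used in counting is not given in the sources used here, so mt-Nd6 cannot be told apart from antisense reads.

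Related genes outside the symbol rule were counted for the sex comparison at E16.5, in which 33.2% of all genes were higher in females and 38.9% lower. All 4 complex II genes (succinate dehydrogenase) were higher in females, with a median of 0.80, as were all 4 ATP synthase assembly factors (2.06). Of 19 complex IV assembly factors 14 were higher and 1 lower, of 6 complex III assembly factors 4 and 1, and of 14 complex I assembly factors 9 and 4. Genes for mitochondrial DNA transcription and mitochondrial RNA processing gave 14 higher and 2 lower of 19, regulators of biogenesis 5 and 2 of 9, and the subunits and electron carriers that the rule misses, such as cytochrome c, 2 and 2 of 7. With median-of-ratios scaling, which shifted all genes by -0.28, 2 of the 4 complex II genes (median 0.52) and all 4 ATP synthase assembly factors (1.78) were higher, and the complex IV assembly factors gave 12 higher and 3 lower. Toward E16.5M, where 55.5% of all genes rose and 25.9% fell, all 4 ATP synthase assembly factors fell (median -1.37) and 14 of 20 complex IV assembly factors fell while 3 rose.

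IUHG left the nuclear members of whole gonads without a call. Of 83 tested, 0 were higher and 0 lower (limma; 1.43% and 1.05% of all genes), and before adjustment 14 had a p under 0.05. The lowest adjusted p was 0.058. The median member changed by 0.03 and the median of all genes by 0.01. Atp5f1b was at 979, 982 and 961 TPM in control and 1103, 1096 and 1062 TPM in IUHG gonads, the groups not overlapping (0.16, adjusted p = 0.0704). Of the 13 mitochondrial members 2, both of complex I, were lower. They were mt-Nd3, at 698, 709 and 839 TPM against 504, 593 and 566 TPM (-0.43, SE 0.08, adjusted p = 0.041), and mt-Nd4l, at 2449, 2525 and 2460 TPM against 2131, 2181 and 2136 TPM (-0.21, SE 0.04, adjusted p = 0.0376). Both lie in the chromosome 1 copy, and the mt-Nd3 call was kept only in the fit without control replicate 1 (adjusted p = 0.0457) and the mt-Nd4l call in 0 of the 6 fits that leave out a library. The count of nuclear calls was 1 without IUHG replicate 3 and 0 in the other fits. The sum of blood markers was lower in the IUHG gonads (10559 to 12022 TPM against 13708 to 16978 TPM). Its genes did not all move together. Hbb-y was called higher (0.50), while Hbb-bs (-1.39), Hbb-bt (-1.16), Hba-a2 (-0.47) and Hba-a1 (-0.45) were called lower. The part of blood cells in the changes of members was not tested.

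At E12.5 and in E13.5F, IUHG libraries had lower nuclear OXPHOS sums, mostly through replicate 3. The sums were 52061, 53395 and 49593 TPM in E12.5 control and 48940, 51549 and 34003 TPM in E12.5 IUHG, and 64880, 71003 and 56938 TPM in E13.5F control against 53666, 55783 and 33366 TPM in IUHG. At E12.5 the groups overlapped, and in E13.5F all control libraries lay above all IUHG libraries. Replicate 3 was also the lowest control library at both stages. The third IUHG library of each was low for short transcripts in general: non-member genes under 1000 bases held 12.7% of TPM in E13.5F IUHG replicate 3, against 21.0% to 23.9% in the other E13.5F libraries, and 17.6% in E12.5 IUHG replicate 3 against 20.5% to 22.0%. The nuclear members are short, with a median transcript of 755.5 bases against 2480.5 for all genes.

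Few of these decreases passed the test. At E12.5, 0 members were higher and 2 lower of 84 (0.879% and 0.697% of all genes), with a median of -0.38 that became -0.04 without IUHG replicate 3. Cox7b2 was at 12.4, 14.9 and 15.2 TPM in control and 7.33, 7.55 and 6.39 TPM in IUHG (-0.91, SE 0.15, adjusted p = 0.0223). Ndufs4, an accessory subunit of complex I, was at 177, 182 and 168 TPM against 119, 129 and 101 TPM (-0.59, SE 0.11, adjusted p = 0.0302). Neither pair of groups overlapped, including in replicates 1 and 2. Interstitial markers were at 0.329 to 0.784 TPM in IUHG and 4.00 to 5.90 TPM in control, with 2 of the 4 genes above the filter and Dcn of these called lower (-1.74, adjusted p = 0.0175). Their part was not tested. The count was 4 without IUHG replicate 3, 1 without IUHG replicate 2, and 0 without IUHG replicate 1 or any control library.

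In E13.5F, 0 were higher and 2 lower of 85 (1.06% and 1.99% of all genes), while 78 of 85 had a change below 0 and the median was -0.56 (all genes 0.14), or -0.28 without IUHG replicate 3. Non-member genes under 1000 bases had a median of -0.32, and 4.9% of them were called lower and 0.213% higher. The part of transcript length was not tested. Cox8c was at 35.7, 29.6 and 17.4 TPM in control and 7.45, 9.10 and 6.04 TPM in IUHG (-1.70, SE 0.31, adjusted p = 0.0232). Cox6b2 was at 302, 295 and 235 TPM against 155, 156 and 132 TPM (-0.90, SE 0.18, adjusted p = 0.031). Both are testis isoforms of complex IV, and all 3 IUHG libraries lay below all controls. Cox7b2, at 23.4, 17.0 and 22.2 TPM against 13.2, 15.3 and 5.00 TPM, did not pass (-0.96, adjusted p = 0.174). The part of Cox8c in the Cox8 sum was 6.24% ± 2.09 in control and 1.24% ± 0.199 in IUHG (SD, n = 3). In the mitochondrial set mt-Nd6 was higher, at 1519, 1317 and 1381 TPM against 2680, 1948 and 3047 TPM (0.84, SE 0.19, adjusted p = 0.0463). The median mitochondrial change was 0.34. Without IUHG replicate 3 there were 2 higher and 12 lower nuclear calls, without IUHG replicate 2 there was 1, and without any other library 0. With all PGC groups in 1 fit, which shares the spread between groups, 3 were higher and 46 lower. The sum of endothelial markers was higher in IUHG (89.2 to 209 TPM against 50.8 to 69.5 TPM), but 3 of the 4 genes were under 1 TPM. The sum was thus mostly Pecam1, which was not called (1.09, limma, adjusted p = 0.0831). A higher sum therefore does not by itself show more endothelial cells, and the part of these markers was not tested.

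In E13.5M PGCs many members changed by small amounts, with a nearly constant sum of 75309, 68561 and 68389 TPM in control and 71701, 72695 and 70465 TPM in IUHG. Of 86 tested, 22 were higher and 9 lower, against 15.2% and 18% of all genes. The median member changed by 0.01. Among non-member genes under 1000 bases 25% were called higher and 18.4% lower, with a median of 0.02. The part of transcript length was not tested. By complex, 11 were higher and 5 lower of 42 in complex I, 1 and 0 of 8 in complex III, 5 and 2 of 18 in complex IV and 5 and 2 of 18 in complex V. The count was 20 without IUHG replicate 2 and 3 with all PGC groups in 1 fit, and 18 of the 31 calls were kept in all 6 fits that leave out a library.

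Among the higher members were several that differ between the sexes. Ndufa1 was at 194, 180 and 164 TPM in control and 274, 261 and 240 TPM in IUHG E13.5M (0.52, SE 0.07, adjusted p = 0.000524). Atp5pb was at 353, 368 and 382 TPM against 495, 478 and 506 TPM (0.42, SE 0.04, adjusted p = 0.00013), and Ndufv2 was at 238, 253 and 239 TPM against 318, 332 and 326 TPM (0.42, SE 0.04). Cox5a, at 2163, 2213 and 2314 TPM against 2858, 2863 and 2907 TPM, was higher by 0.37 and Cox4i1 by 0.23. In none of these did the groups overlap. Lower members were led by Cox7b2, at 14.2, 16.4 and 16.1 TPM against 9.47, 6.25 and 8.26 TPM (-0.90, SE 0.14, adjusted p = 0.00102), Ndufb11b (-0.56) and Ndufv3 (-0.48). The core subunits Ndufv1 and Atp5f1b were lower by 0.17 and 0.13. Of the 7 subunits and carriers outside the symbol rule, 6 were higher and 0 lower (15.2% and 18% of all genes). Steroidogenic markers were at 21.0 to 26.6 TPM in control and 0.857 to 3.89 TPM in IUHG libraries, and their part was not tested.

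In E16.5F PGCs every call was a decrease. Of 85 nuclear members 0 were higher and 16 lower (2.56% and 3.08% of all genes), 8 of them in complex I, 0 in complex III and 4 each in complexes IV and V. Nuclear members summed to 68743, 64980 and 64364 TPM in control and 59869, 61870 and 58538 TPM in IUHG, without overlap. The median member changed by -0.15 and the median of all genes by 0.04. The calls include Cox6b2, at 126, 130 and 150 TPM against 58.3, 76.6 and 70.2 TPM (-0.98, SE 0.14, adjusted p = 0.00567). Small subunits of the ATP synthase membrane part were lower too, Atp5me at 268, 247 and 291 TPM against 142, 147 and 152 TPM (-0.86, SE 0.10, adjusted p = 0.00247) and Atp5mk at 609, 617 and 599 TPM against 379, 345 and 284 TPM (-0.87, SE 0.11). Atp5mk has a near-identical copy over 98.2% of its transcript, so its reads cannot be assigned with certainty. Ndufb10, an accessory subunit of complex I, was at 661, 662 and 605 TPM against 450, 447 and 441 TPM (-0.53, SE 0.07), and Cox8a at 171, 181 and 149 TPM against 116, 109 and 107 TPM (-0.58, SE 0.11). Each of these groups was fully separated.

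These 5 genes encode small accessory subunits. Ndufc1 (-0.62), Cox4i1 (-0.35) and Cox6a1 (-0.26) were lower as well, and the smallest called change was Ndufa6 (-0.23). Ndufb10, Atp5me, Atp5mk and Cox6b2 were called in all 6 fits that leave out a library. The count of 16 fell to 7 without IUHG replicate 1, 4 without IUHG replicate 3, 4 without control replicate 1 or 2 and 5 without control replicate 3. Non-member genes under 1000 bases changed by a median of -0.14, and 9.74% of them were called lower, beside 18.8% of the nuclear members, and interstitial markers were at 48.6 to 75.4 TPM in IUHG and 12.7 to 44.4 TPM in control. The part of transcript length and of other cells was not tested. Of the 4 ATP synthase assembly factors 2 were higher and 0 lower (2.56% and 3.08% of all genes).

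In E16.5M PGCs 4 nuclear members were higher and 9 lower of 88 (3.38% and 2.54% of all genes), with a median of -0.06. Of the non-member genes under 1000 bases 9.04% were called lower, with a median of -0.11, beside 10.2% of the nuclear members, and such genes held 23.3% to 24.0% of TPM in IUHG and 25.3% to 26.3% in control. Steroidogenic markers summed to 12.2 to 23.7 TPM in IUHG and 23.7 to 98.1 TPM in control, with 0 of 4 genes called (changes of -1.91 to -0.93), and Sertoli markers to 8.67 to 10.3 TPM and 10.8 to 11.9 TPM. The part of transcript length and of other cells was not tested. Atp5pb was at 75.2, 67.5 and 72.6 TPM in control and 95.2, 101 and 101 TPM in IUHG (0.46, SE 0.07, adjusted p = 0.012), followed by Ndufs4 (0.39), Uqcrfs1, the Rieske iron-sulfur subunit of complex III (0.35), and Ndufv2 (0.34). Cox6b2 was lower, at 47.4, 53.3 and 43.4 TPM against 31.3, 36.4 and 32.9 TPM (-0.50, SE 0.10, adjusted p = 0.0268), as were Ndufb11 (-0.45) and Ndufb2 (-0.36), both accessory subunits of complex I. The groups of each of these did not overlap. The count of 13 was 0 without IUHG replicate 2 or control replicate 2, 7 without IUHG replicate 1, 5 without IUHG replicate 3 and 3 without control replicate 3. Few members changed by more than 1 on the log2 scale with IUHG. With an adjusted p under 0.05 beside that change 0 members passed in gonads (0.612% of all genes). With an unadjusted p under 0.01 beside it, the cutoff that the study's methods give for PGCs, here applied to limma, 0 members passed at E12.5 (1.13% of all genes), in E13.5M (4.06%), E16.5F (4.85%) and E16.5M (1.12%). In E13.5F 2 passed (6.08% of all genes), Cox8c and Ndufa1 (-1.07), of which Ndufa1 did not pass after adjustment (limma, adjusted p = 0.086).

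**Figure D5:**
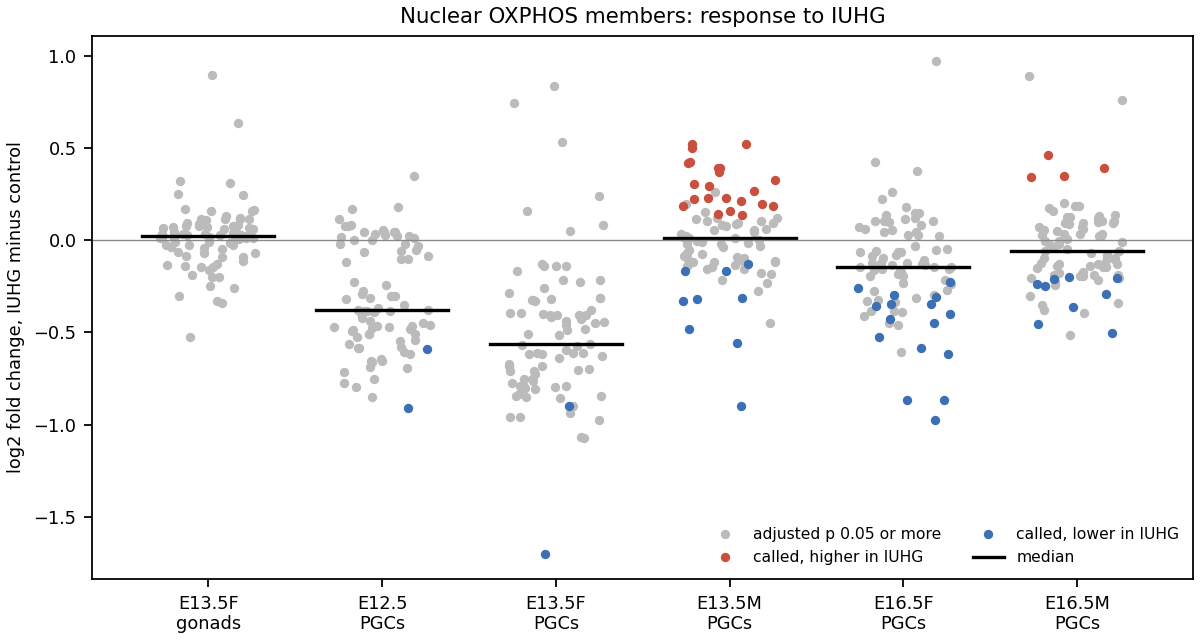
Log2 fold change (IUHG minus control, on log2(TPM + 1)) of every tested nuclear OXPHOS member in gonads and in the 5 PGC comparisons, 1 point per gene with a bar at the median, red for called higher, blue for called lower and grey for not called. Calls go both ways in E13.5M and E16.5M, and the 16 calls in E16.5F are all decreases.

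Side by side, Cox6b2 was lower with IUHG in 3 comparisons, E13.5F (-0.90), E16.5F (-0.98) and E16.5M (-0.50), and in E13.5M it changed by -0.18 without a call. These comparisons use separate libraries. Cox7b2 was called lower at E12.5 and in E13.5M. In E13.5F it changed by -0.96 (SE 0.38) without a call, with all IUHG libraries below all controls. Atp5pb, Ndufs4 and Ndufv2 were higher in both E13.5M and E16.5M. The change with IUHG differed between the sexes, by a test of the interaction, for 13 of 87 nuclear members (14.9%) at E13.5, all with a lower value in females (4.84% of all genes in that direction and 5.04% in the other, but 11.3% and 1.84% of non-member genes under 1000 bases), and for 5 of 88 at E16.5, 2 higher and 3 lower in females (1.51% and 2.91%). With median-of-ratios scaling, which moved the median of all genes by -0.19 at E13.5, 5 members passed the test at E13.5 and 2 at E16.5, and without a filter on low values 1 and 2 passed. At E13.5 Ndufa1 changed by -1.07 in females and 0.52 in males, Ndufv2 by -0.84 and 0.42, and Atp5pb by -0.40 and 0.42. At E16.5 Ndufb2 changed by 0.37 in females (223, 189 and 219 TPM against 244, 304 and 272 TPM) and by -0.36 in males.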

How the data were processed

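RNA-seq was measured in 36 libraries, and the authors deposited a StringTie gene table for each with coverage, FPKM and TPM. Per the study's methods the authors aligned gonad reads with HISAT2, and PGC reads, of which only uniquely aligned ones were used, with STAR to Mm39. Gene positions in the gonad tables are those of GRCm38. The submitters' processing notes name FastQC, Trim Galore, STAR, featureCounts, DESeq2 and mm39. The deposited TPM values carried all tests. The deposited coverage signal and FPKM served only to estimate depth. Tables were joined by Ensembl ID.

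Groups came from the labels. log2(TPM + 1) was tested with limma 3.58.1 (R 4.3.3, intensity trend, Benjamini-Hochberg over all tested genes) among genes with a mean of at least 1 TPM in a compared group. A call is an adjusted p under 0.05. A log2 change over 1 with an adjusted p under 0.05 in gonads, and, chosen after the data were seen, with the unadjusted p under 0.01 that the study's methods give for PGCs, was applied beside it. Code was tested on simulated data. A known change was called at different rates between comparisons, and least often for IUHG in E13.5F. Counts of calls therefore cannot be compared between comparisons as sizes of response. Nuclear copies were searched with BLAST 2.17.0. No libraries within a group were identical.

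The members and gene lists were chosen with earlier results of these data known. Genes named were the 13 mitochondrial genes, 8 core subunits, isoform subunits, the 2 highest and 2 lowest calls per comparison, members with a log2 change over 1 and an adjusted p under 0.05 in gonads or 0.01 in PGCs, the 4 largest interactions per stage and listed genes, and other members named for a range or group were chosen after their values were seen. Alternatives were another pseudocount (0.1), no filter, median-of-ratios scaling, TPM without mitochondrial genes, all PGC groups in 1 fit, a replicate block and leaving out each library. Authors' columns of comparisons were not present. Results of 1 member named by this rule are not reported here.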

Additional observations from a re-analysis of the deposited data

Results flagged for a closer look

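The change with IUHG differed between female and male PGCs, by the interaction term of a limma fit over all genes, for the following members. No cause was tested. At E13.5, Ndufa1 had an interaction (female minus male, log2 scale) of -1.59 (SE 0.35, adjusted p = 0.013), with a change of -1.07 in females and 0.52 in males. Ndufa1 was at 606, 675 and 365 TPM in female controls and 368, 237 and 183 TPM in female IUHG PGCs, where the groups overlap, while in males all 3 IUHG libraries were above all 3 controls. Cox6c2 had -1.56 (adjusted p = 0.0461; -1.07 and 0.50), at low levels between 4.10 and 22.1 TPM. Ndufv2 had -1.26 (adjusted p = 0.0127; -0.84 and 0.42) and Ndufb8 had -1.16 (adjusted p = 0.0227; -0.77 and 0.39). Ndufa1 and Ndufv2 were called in all 12 fits that leave out a library, Ndufb8 in 5 and Cox6c2 in 3. Without a filter on low values none of these 4 passed (limma, adjusted p = 0.057 for Ndufa1, 0.0504 for Ndufv2, 0.086 for Ndufb8 and 0.145 for Cox6c2). The female side includes E13.5F IUHG replicate 3, which had a low share of short transcripts. At this stage the interaction had a median of -0.29 over non-member genes under 1000 bases.

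At E16.5, Ndufb2 had an interaction of 0.73 (adjusted p = 0.0143; 0.37 in females and -0.36 in males) and was called in all 12 fits that leave out a library. Ndufb11, an X-linked subunit, had 0.52 (adjusted p = 0.0404; 0.06 and -0.45). Atp5me had -1.05 (adjusted p = 0.0304; -0.86 and 0.19) and Atp5mk had -0.96 (adjusted p = 0.0349; -0.87 and 0.09). Ndufb11 was called in 4, Atp5mk in 4 and Atp5me in 7 of the 12 fits. Reads of Atp5mk are uncertain, since 98.2% of its transcript has a near-identical copy elsewhere. Without a filter on low values Ndufb2 passed (limma, adjusted p = 0.0357) and the other three did not.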

How the results depend on the processing

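Calls of nuclear members moved with the fit. With all PGC groups in 1 fit the count was 49 in E13.5F (3 higher, 46 lower), 3 in E13.5M, 6 in E16.5F and 2 in E16.5M. Without a filter on low values it was 0 at E12.5, 0 in E13.5F, 17 in E13.5M, 4 in E16.5F and 1 in E16.5M, and for the sex interaction 1 at E13.5 and 2 at E16.5. Median-of-ratios scaling gave 5 interactions at E13.5 and 2 at E16.5. Over all genes, same-numbered libraries showed little pairing (the correlation of deviations was at most 0.132, and no comparison had all 3 pairs above 0.1). Short genes did keep an order. In each E12.5 and E13.5F PGC group, short non-member genes held the largest TPM share in replicate 2 and the smallest in replicate 3. The nuclear member sums of these groups ranked likewise. Whether replicate numbers mark shared batches was not tested. The replicate block gave 20 calls in E13.5F (1 higher, 19 lower), 9 in E16.5F, 5 in E16.5M and 3 interactions at E16.5, and moved no other count by over 1.5 times. Leaving out each library in turn gave 0 to 1 calls in gonads, 0 to 4 at E12.5, 0 to 14 in E13.5F, 20 to 33 in E13.5M, 4 to 18 in E16.5F, 0 to 15 in E16.5M, 3 to 29 interactions at E13.5 and 1 to 10 at E16.5. The total stage and sex counts in controls, higher and lower calls together, moved by less than 1.5 times under every alternative run, but their split by direction moved with median-of-ratios scaling, from 43 higher and 8 lower to 21 and 20 toward E13.5F, from 25 and 32 to 10 and 47 between the sexes at E13.5, and from 30 and 26 to 15 and 29 toward E16.5F.

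Of 506 named changes refitted with median-of-ratios scaling, 19 took the opposite sign and passed the test before or after the change of scaling. They were mt-Nd4 (-0.061), mt-Nd1 (-0.27) and Cox7a2l (-0.078) from E12.5 to E13.5F. From E13.5M to E16.5M they were mt-Atp6 (-0.022), mt-Atp8 (-0.095), mt-Nd2 (-0.13), mt-Nd4 (-0.18), mt-Nd5 (-0.31), mt-Nd6 (-0.32), mt-Co3 (-0.34), Uqcrfs1 (-0.16), Cox6a1 (-0.32), Atp5mc1 (-0.35) and Atp5mc3 (-0.37). Between the sexes they were mt-Cytb (-0.023), mt-Nd6 (-0.10), Ndufv1 (-0.24) and Atp5mc2 (-0.28) at E13.5 and Cox7a2l (-0.20) at E16.5. This scaling shifts all genes of a comparison together. No named change that passed the test in either fit took the opposite sign under another pseudocount, no filter, TPM without mitochondrial genes, 1 fit or the block. The cause of the other moved counts was not tested. TPM is a share of the library, so it cannot show RNA per cell, and low levels such as those of mt-Nd3 carry unknown counting error.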

Other observations

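Gene models left out of the rule included Ndufa12-ps, a processed copy of the complex I gene Ndufa12, listed at a mean of 249 TPM in E12.5 control PGCs and of up to 402 TPM in a PGC group. Of 82 nuclear members with a transcript in NCBIM37, 64 had no copy elsewhere of at least 98% identity over at least 100 bases, 10 had one over at least 50% of the transcript and 4 (Atp5mc2, Atp5mk, Atp5mg and Uqcrb) over at least 90%. Ndufs3 and Uqcrc1 were each listed under a second gene ID on a patch sequence in the gonad tables, and Uqcrc1 had a mean of 135 TPM on chromosome 9 and 128 TPM on the patch in control gonads.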
